A study of Mus musculus with 110 samples.

Results

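The VH segment that lies first beside the D array of the mouse immunoglobulin heavy chain locus (Igh) was followed across 13 groups of pro-B cell samples. It is called Ighv5-6-like_114830805 after its closest annotated gene and its position, and "the segment" below. Its junctions were all rows of the full junction libraries whose prey position on chromosome 12 lay within 100 bp of 114830805, in the coordinates of the hybrid genome the authors aligned to. There were 6515 such junctions of 3602400, or 0.181% of all junctions and 2.09% of the 312039 junctions in the VH region (114829805 to 117639092). The rule used position alone. Ighv5-2, the next used VH on the side away from the D array, lies 5572 bp further and held 82864 junctions within the same 100 bp of position 114836377.

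A heavy chain gene is assembled when the RAG endonuclease cuts at recombination signal sequences, first joining a D to a JH segment and then a VH segment to that DJH. A signal is a heptamer and a nonamer held apart by a spacer, and it starts at the coding end of the segment. Cohesin draws chromatin past RAG bound at the DJH, so that RAG scans along the locus, and CTCF bound to DNA can slow this movement. IGCR1 is a pair of CTCF sites between the D array and the first VH segments that normally keeps scanning within the D array. Ighv5-2, also known as VH81X, is the VH best known for frequent use among those near the D array. It has a CTCF site just past its signal.

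In the assay (LAM-HTGTS V(D)J-seq) genomic DNA is copied from a bait at JH4 by linear amplification, and each read joins the bait to the prey it was fused to. The 98 full libraries formed 56 replicates. All cell lines were v-Abl transformed pro-B lines with an Emu-Bcl2 transgene and RAG2 deficiency. All received RAG2 by nucleofection and 3 µM of the Abl kinase inhibitor STI-571 for 4 days. The IAA groups are titled as also given the auxin IAA, which the treatment labels put at 500 µM for 6 h before and then together with the inhibitor. In 4 libraries titled IAA the treatment label names no IAA: both libraries of CTCF degron replicate 5, library a of CTCF degron replicate 4, and IGCR1-deleted Rad21 degron replicate 4. In cells with the plant protein OsTIR1, IAA sends degron-tagged proteins for breakdown. The lines, each untreated and with IAA, were parental (4 replicates per group), Ostir1 knock-in only (4), CTCF-mAID-GFP tag only (4), CTCF degron (6), Rad21 degron (3) and a Rad21 degron line in which IGCR1 was deleted (4). OsTIR1-only is used below for the Ostir1 knock-in line and CTCF-tag-only for the tagged one. Rad21 is a subunit of cohesin. The 6 remaining samples were wild-type 129SV bone marrow pro-B cells, which had no inhibitor treatment in the labels. Whether each line was 1 clone was not given in the sources used here. Whether replicates came from separate cultures was not stated either, so p-values measure only the spread between these samples.

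A replicate held 1263 to 231023 junctions, and the segment was seen in 53 of 56 replicates. The 3 replicates without it were the IAA-treated Rad21 degron samples. Of its junctions, 6463 were in plus orientation and 52 in minus. Identical junctions of a library collapsed to 1 left 5010. Identical here means the same prey position, orientation, bait end and number of bases between bait and prey. The bases between were not compared, so separate joins alike in these respects are merged too. Such merging can grow with the number of joins a library holds, and its extent was not measured. The window had little bearing, since 6511 junctions lay within 50 bp and 6516 within 200 bp. In the 12 lists of off-target junctions the window held 1 row in all.

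The sequences beside the recombining end are shown because they are what RAG cuts and what a reader can compare between the segment and its used neighbour. They were read as the sequence of joins with an intact coding end, and of minus-orientation reads that run from the signal. Each is given 5′ to 3′ on the coding strand, and each matched mm9 exactly on the minus strand of chromosome 12. Capitals in the coding ends mark a stop codon in the reading frame. Capitals in the signals mark the heptamer, the nonamer and an 18-base stretch that lies where Ighv5-2 matches the CTCF motif.
Ighv5-6-like_114830805 coding end (chr12:114811138-114811287): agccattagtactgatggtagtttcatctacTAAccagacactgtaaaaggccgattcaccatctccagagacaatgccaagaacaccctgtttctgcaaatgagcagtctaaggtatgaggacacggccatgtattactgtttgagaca
Ighv5-2 coding end (chr12:114816715-114816864): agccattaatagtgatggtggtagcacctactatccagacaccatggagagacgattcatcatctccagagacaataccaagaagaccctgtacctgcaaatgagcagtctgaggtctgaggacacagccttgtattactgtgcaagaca
Ighv5-6-like_114830805 signal and flank (chr12:114811058-114811137): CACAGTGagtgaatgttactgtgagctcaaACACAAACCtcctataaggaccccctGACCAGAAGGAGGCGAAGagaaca
Ighv5-2 signal and flank (chr12:114816635-114816714): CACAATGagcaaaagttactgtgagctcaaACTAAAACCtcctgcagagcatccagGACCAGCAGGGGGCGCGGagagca

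The coding ends were alike at 124 of 150 bases. The segment had 1 stop codon in frame, TAA, 116 bases before the end, and Ighv5-2 had 0 stop codons in 290 bases read. The segment's heptamer differed from that of Ighv5-2 by A5G and its nonamer by T3A and A4C, counted from the 5′ end of each element, with the base of Ighv5-2 first. Both spacers were 23 bases long and were alike at 20 of them. The 18-base stretch, which began 56 bases past the start of the heptamer, differed by C7A, G11A, C16A and G17A. A search of the 100 bases past the coding end, on both strands, for the 12-letter core of the CTCF motif found a match at Ighv5-2 and none at the segment, whose nearest stretch was 2 letters off. The same search matched 18 of 112 annotated mm9 VH genes (16.1%), and 11 of the 14 that lie within 200 kb of the segment. A match describes letters only, and CTCF binding was not measured in these libraries.

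The read sequence of the segment matched mm9 at chr12:114811138-114811509 on the minus strand, with 97.849% identity over 372 aligned bases. No gene of the GENCODE vM1 annotation overlapped that match. The next annotated VH gene was Gm17347 (114812453 to 114812892), and Gm16969 (114816715 to 114817201) held the match of Ighv5-2. RefSeq, in GRCm38, places the pseudogenes Ighv5-1 and Ighv2-1 before Ighv5-2 in that order, so the segment stands where RefSeq has Ighv5-1. The name used here reflects only that Ighv5-6 was the closest annotated coding end, at 90.734% identity over 259 bases. Of 139 VH segments with a junction peak, the segment was the nearest to the D array. VH peaks were kept only from position 114829805 on, just before the segment, and the segment's own position was set in advance. Whether a used VH lies nearer to the D array was therefore not tested.

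Untreated parental cells used the segment rarely but more than most VH. Its share of all junctions was 0.114%, 0.114%, 0.182% and 0.187% in the 4 replicates, and its share of VH junctions was 3.28%, 2.66%, 3.31% and 3.62%. It ranked 5th of 139 VH by mean share. Its ratio to Ighv5-2 was 0.0627, 0.0515, 0.0689 and 0.0791 over the same replicates, so that Ighv5-2 held the larger number in each of them. Ighv5-2 alone took 49.4% ± 3.09 (SD, n = 4) of the VH junctions.

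**Figure D1:**
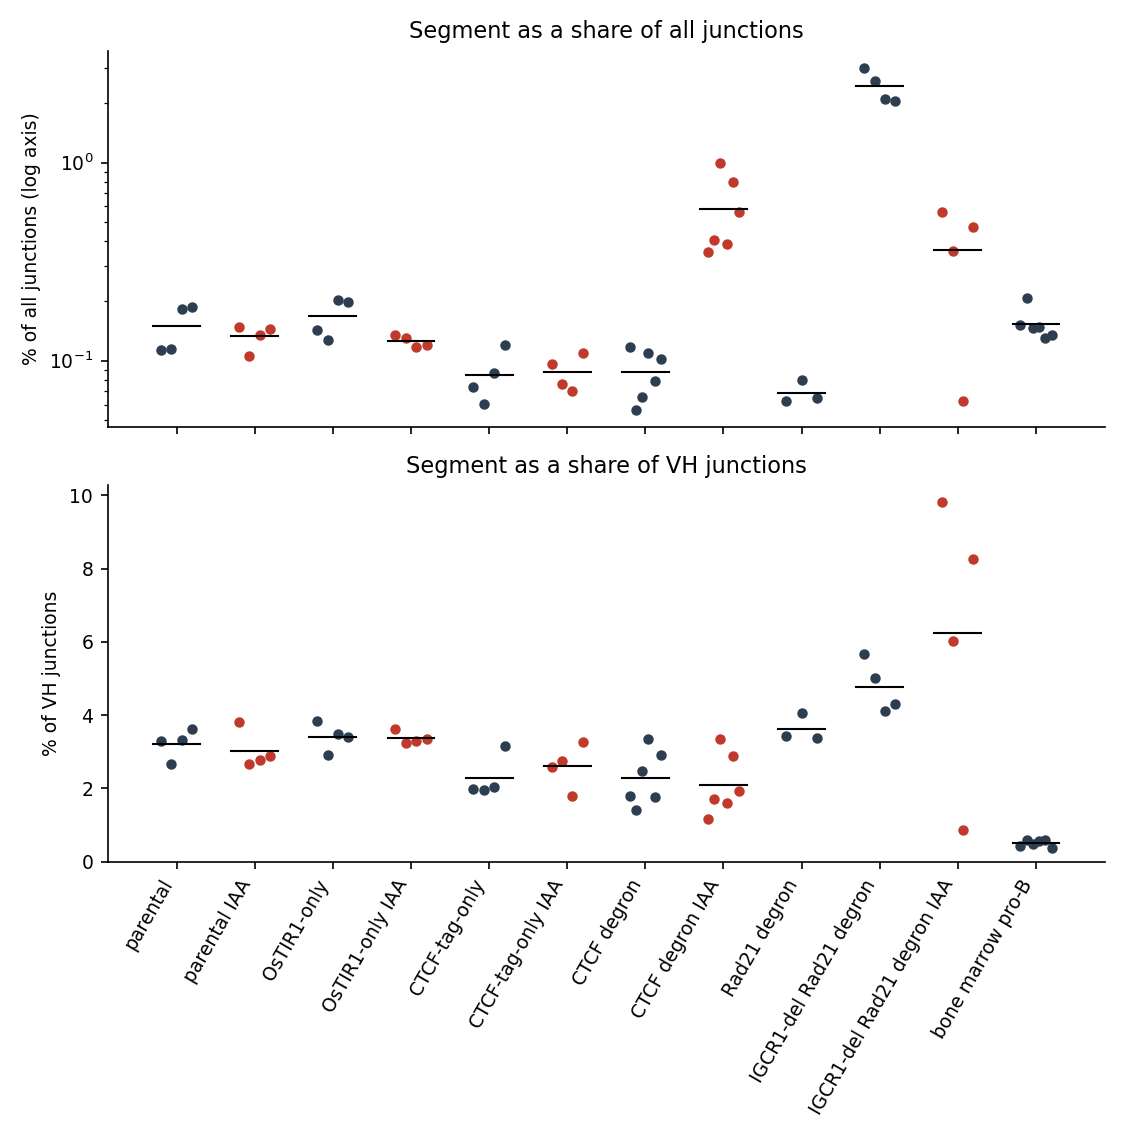
Each point is 1 replicate, the line is the group mean, blue groups are untreated and red groups had IAA. The upper panel gives the segment's share of all junctions on a log axis, and the lower panel its share of VH junctions. The 3 IAA-treated Rad21 degron replicates are left out because they hold 0 junctions. The untreated IGCR1-deleted line lies highest in the upper panel (2.05% to 3.01%), and bone marrow lies lowest among the groups of the lower panel by mean (0.506%).

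By mean share of all junctions, the untreated IGCR1-deleted line came first at 2.43% ± 0.455 (SD, n = 4), and its range did not overlap that of any other group. CTCF degron cells with IAA came next at 0.584% ± 0.259 (n = 6), and IGCR1-deleted cells with IAA at 0.363% ± 0.217 (n = 4). Below them stood untreated OsTIR1-only cells (0.167% ± 0.0381, n = 4), bone marrow (0.153% ± 0.0278, n = 6) and untreated parental cells (0.149% ± 0.0409, n = 4). From the second place down to the untreated Rad21 degron line, each group's range overlapped that of its neighbour in this order. The lower places went to parental cells with IAA (0.133% ± 0.0194, n = 4), OsTIR1-only cells with IAA (0.125% ± 0.00849, n = 4), untreated CTCF degron cells (0.0881% ± 0.0249, n = 6), CTCF-tag-only cells with IAA (0.0879% ± 0.0181, n = 4) and without it (0.0850% ± 0.0256, n = 4), and untreated Rad21 degron cells (0.0689% ± 0.00955, n = 3). Rad21 degron cells with IAA were last at 0 junctions.

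IAA alone, in lines with no degron-tagged protein under OsTIR1, gave no call at the segment. The log2 change of its share of all junctions was -0.29 in parental cells, -0.42 in OsTIR1-only cells and 0.07 in CTCF-tag-only cells (limma on voom weights, fitted over 98 segments and 56 replicates; adjusted p = 0.80, 0.71 and 0.99). Over all segments tested, this fit called 2.04%, 0% and 3.06% in those lines. For OsTIR1-only cells, 11 of 98 segments had an unadjusted p under 0.05 and limma-trend called 0. Among the 83 VH segments tested as shares of VH junctions the fit called 0% in each of these lines, with 4, 5 and 2 segments at an unadjusted p under 0.05. The fit on VH junctions used 55 replicates, since 1 IAA-treated Rad21 degron replicate held no VH junction. The log2 difference of the ratio to Ighv5-2 was -0.13, -0.02 and 0.32, and the groups overlapped (two-sided exact permutation p = 0.543, 0.914 and 0.429, adjusted over 9 comparisons 0.698, 1 and 0.643). IAA ran within 1 sequencing run with its control for parental replicates 3 and 4, where the log2 change was -0.40, and in 2 runs for OsTIR1-only cells, where it was -0.02 and -0.76.

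IAA in the CTCF degron line, which marks CTCF for breakdown, raised the segment's share of all junctions, and no change of its share of VH junctions was called. CTCF protein itself was not measured in these libraries. In untreated CTCF degron cells the share of all junctions was 0.118%, 0.0563%, 0.0656%, 0.109%, 0.0785% and 0.102% in replicates 1 to 6. With IAA it was 0.355%, 0.406%, 0.995%, 0.390%, 0.794% and 0.564%. All treated replicates lay above all untreated ones, and both groups came from 1 sequencing run. The log2 change was 2.68 (SE 0.28, adjusted p = 2.69e-13, limma), and 1.73 (adjusted p = 5.68e-06) with identical junctions collapsed to 1. It was 2.57 without treated replicate 5 and 2.77 without treated replicate 4, whose treatment labels lack IAA in both libraries and in 1.

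This rise was one shared by nearly all VH. In the same comparison 85.7% of the 98 segments passed the test (83 rose, 1 fell), with a median log2 change over all of 2.38. The segment's change was the 43rd highest of 98. The VH region as a whole took 2.64% to 6.53% of all junctions in untreated replicates and 23.7% to 30.2% with IAA. Scaled by the median of ratios over segments, which sets the common rise to about 0, the segment's change was 0.19 (adjusted p = 0.72), and the calls split into 26 higher and 32 lower.

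As a share of VH junctions, the segment held 1.42% to 3.34% without IAA (median 2.14%) and 1.17% to 3.33% with it (median 1.83%). The groups overlapped almost completely, and the log2 change was -0.09 (SE 0.28, adjusted p = 0.84), while 22.9% of 83 VH segments were called, 13 higher and 6 lower. In order from the segment, Ighv5-2 changed by -2.93 (adjusted p = 9.15e-19) and the next VH, Ighv2-2 at 114846142, by -2.76 (adjusted p = 1.08e-16) on this scale. The VH after it, at 114855361 and closest to Ighv5-4 (96.154% identity), had a log2 change of 0.07, and Ighv2-3 at 114869105 rose by 0.84. On this scale, then, the pair of VH between the segment and position 114855361 fell, and those at either side of the pair had no call.

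**Figure D2:**
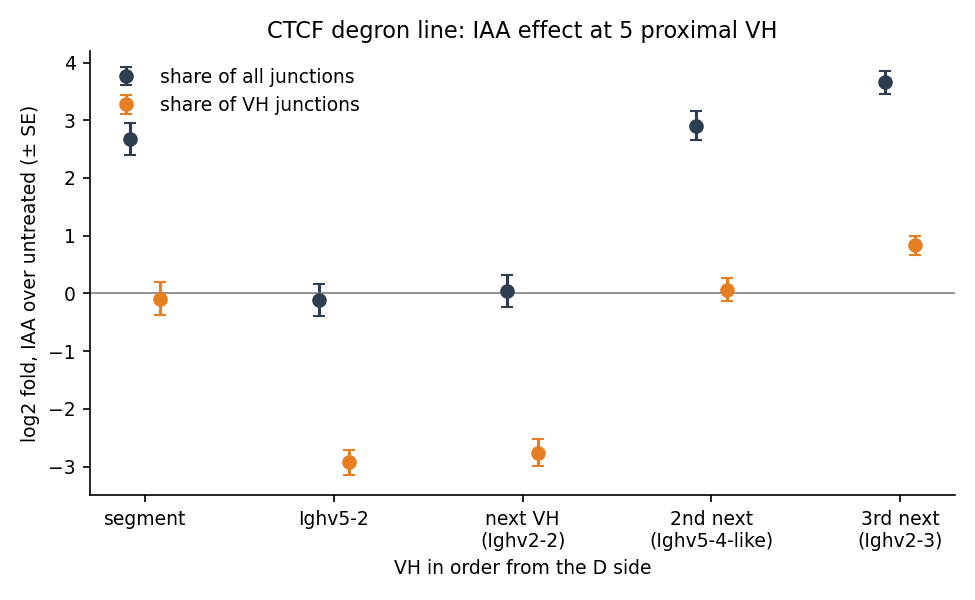
Log2 change with IAA in the CTCF degron line (points, ± SE from limma) for the segment and the next used VH in order away from the D array, as shares of all junctions (blue) and of VH junctions (orange). The segment stands at 2.68 and -0.09, and Ighv5-2 at -0.11 and -2.93.

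Measured against Ighv5-2, the segment went from the minor to the major member of the pair. Untreated replicates 1 to 6 had ratios of 0.0822, 0.161, 0.161, 0.221, 0.169 and 0.154. With IAA the ratios were 0.563, 1.06, 1.40, 1.05, 1.29 and 1.29, so that the segment held more junctions than Ighv5-2 in 5 of 6 treated replicates and in no other replicate of the series. The ratio rose 7.02-fold (2.81 on the log2 scale), in 6 of 6 same-numbered pairs, with no overlap (two-sided exact permutation p = 0.00216, the smallest that 6 against 6 allows, adjusted 0.0143). Behind the ratio, the segment's mean share of all junctions went from 0.0881% to 0.584%, and that of Ighv5-2 from 0.635% ± 0.403 to 0.525% ± 0.145 (SD, n = 6), a log2 change of -0.11 (adjusted p = 0.72).

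**Figure D3:**
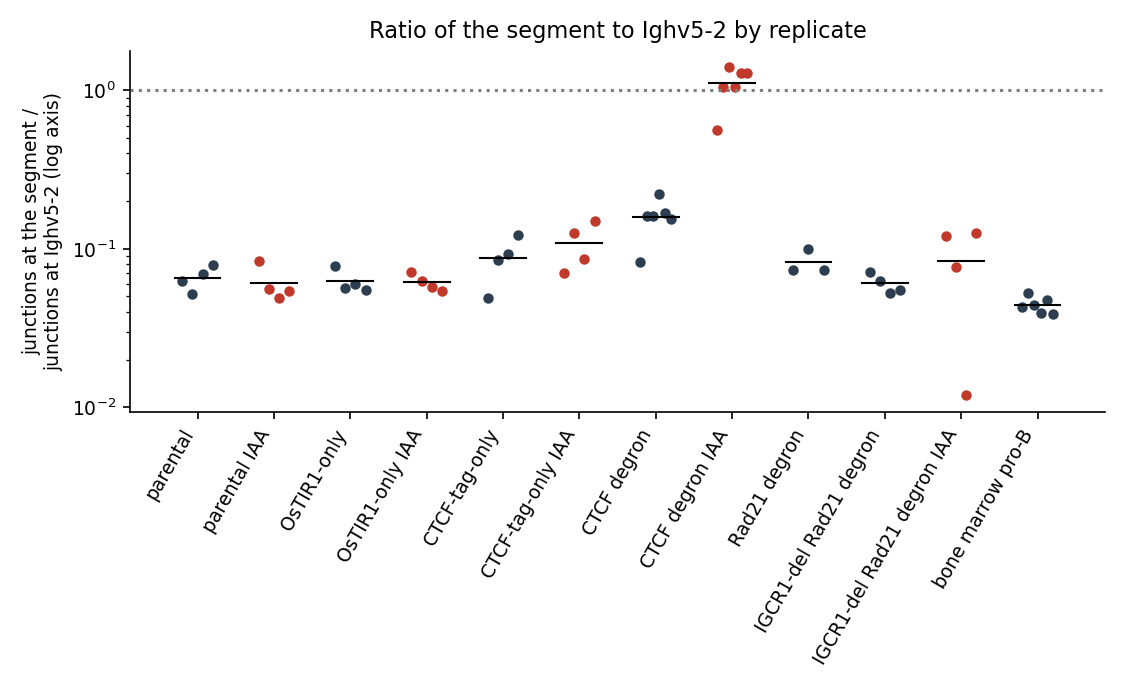
Ratio of the segment's junctions to those of Ighv5-2 by replicate, on a log axis, with the group mean as a line, untreated groups in blue and IAA groups in red. IAA-treated CTCF degron replicates lie between 0.563 and 1.40, and all other replicates lie at or below 0.221. The dotted line marks a ratio of 1, and Rad21 degron cells with IAA are left out for lack of junctions.

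The effect of IAA on the segment's share of all junctions differed between the CTCF degron line and each control line, as it did for most segments. For the share of all junctions the difference in log2 change was 2.97 against parental cells, 3.10 against OsTIR1-only cells and 2.61 against CTCF-tag-only cells (limma interaction; adjusted p = 6.13e-09, 1.67e-08 and 2.52e-07). With identical junctions collapsed to 1 these were 2.15, 2.08 and 1.76, all still called. Scaled by the median of ratios they were 0.33, 0.76 and 0.29, and none was called (adjusted p = 0.74, 0.35 and 0.71). These 3 contrasts share the CTCF degron samples, and they called 69.4%, 57.1% and 66.3% of the 98 segments. For the ratio to Ighv5-2 the differences were 2.94, 2.83 and 2.49 on the log2 scale. With line labels permuted within each treatment these did not pass (two-sided permutation over all 44100 arrangements, p = 0.0518, 0.0622 and 0.0433, adjusted 0.0622 each). That permutation takes the lines to be alike without IAA, but untreated CTCF degron and parental ratios differed by 2.34-fold. It therefore cannot decide whether the effect of IAA on the ratio differed between lines. Permuting the changes of same-numbered pairs gave p = 0.00476 each (exact, the smallest possible), but the numbers were not shown to pair replicates in the CTCF degron and parental lines. For the share of VH junctions they were 0.14, -0.08 and -0.26, with no call at the segment, where the contrasts called 10.8%, 6.02% and 6.02% of 83 VH segments.

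The CTCF degron line differed from the parental line before any IAA. Its untreated ratios to Ighv5-2 lay above all 4 parental ones, by 2.34-fold (two-sided exact permutation p = 0.00476, the smallest that 6 against 4 allows, adjusted 0.0143). The segment's share of all junctions was lower, with a log2 difference of -0.92 (SE 0.31, adjusted p = 0.00951, limma), in a comparison that called 57.1% of segments, 52 higher and 4 lower. Without parental replicate 3 or 4 that p became 0.0517 or 0.0586, and under the median of ratios the calls split into 25 higher and 23 lower, with the segment at -2.10. Its share of VH junctions differed by -0.63 (adjusted p = 0.0550, 68.7% of 83 VH segments called). That difference was called with identical junctions collapsed to 1 (-1.05, adjusted p = 0.000827) and with Ighv5-2 left out of the denominator (-1.33, adjusted p = 0.000422). With identical junctions collapsed to 1, the log2 difference of the ratio was 0.80 (p = 0.0619, exact permutation). Untreated CTCF-tag-only cells lay close to untreated CTCF degron cells in mean share of all junctions (0.0850% and 0.0881%) and of VH junctions (2.27% and 2.29%). Their mean ratios to Ighv5-2 were 0.0873 and 0.158. CTCF-tag-only cells were not tested against the parental line. Untreated CTCF degron and parental cells shared no sequencing run, so line and run cannot be told apart.

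Deletion of IGCR1 gave the segment its highest use. The untreated Rad21 degron line with IGCR1 intact had shares of all junctions of 0.0624%, 0.0799% and 0.0645%. Without IGCR1 they were 3.01%, 2.58%, 2.08% and 2.05%, and the log2 change was 5.14 (SE 0.39, adjusted p = 1.20e-18, limma), or 4.40 (adjusted p = 1.43e-11) with identical junctions collapsed to 1. Here 12.2% of 98 segments were called, 7 higher and 5 lower, and the segment's rise was second of 98. The 5 called higher in the first 200 kb of the VH region were the segment and the next 4 used VH. The log2 change was 5.56 at Ighv5-2, 4.53 at Ighv2-2, 3.22 at 114855361 and 1.42 at Ighv2-3, smaller at each VH further from Ighv5-2. The other 2 higher calls were at VH further off that held 3 and 1 junctions in these groups. The calls lower were 4 D segments and 1 VH in the first 200 kb.

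Within the VH junctions, counted as deposited, no change of the segment was called. It held 3.44%, 4.06% and 3.38% with IGCR1 and 5.67%, 5.01%, 4.11% and 4.31% without it, ranges that did not overlap, and limma gave a log2 change of 0.42 (SE 0.41, adjusted p = 0.32). With identical junctions collapsed to 1 it was 1.12 and was called (adjusted p = 0.00624). On that scale 97.6% of 83 VH segments were called, but 66 of the 81 calls were at segments with under 10 junctions in both groups together, whose fitted values rest on the 0.5 junctions that voom adds before taking logs. With Ighv5-2, which took 78.9% ± 0.767 (SD, n = 4) of the VH junctions after deletion, left out of the denominator, the segment's change was 1.79 (adjusted p = 0.000217). The ratio to Ighv5-2 was 0.0730, 0.100 and 0.0738 with IGCR1 and 0.0528 to 0.0717 without it. These ranges did not overlap, yet the log2 difference of -0.44 did not pass (exact permutation p = 0.0571, adjusted 0.103), and it was 0.39 with identical junctions collapsed to 1 (p = 0.229). The deleted line had b libraries only. Over the b libraries of both lines the log2 changes were 5.13 for the share of all junctions (adjusted p = 8.74e-18, limma), 0.36 for the share of VH junctions and -0.52 for the ratio. The lines shared no sequencing run, so run and deletion cannot be told apart.

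IAA in the Rad21 degron line, which marks this cohesin subunit for breakdown, left no junction at the segment. There were 0 junctions at the segment among 1811, 1263 and 2492 in the line with IGCR1 intact. The loss was one of VH junctions in general. The whole VH region held 5 junctions over these replicates, 2 of them at Ighv5-2, against a mean share of 1.90% of all junctions in untreated replicates. Over the 3 replicates together, 0 of 5566 junctions allows a share of up to 0.0539% (3 junctions), against an untreated mean of 0.0689% and a lowest untreated replicate of 0.0624%. The share was thus at least 1.28-fold lower than the untreated mean, a bound that covers counting error only. In the IGCR1-deleted line the treated replicates held 15, 8, 1 and 9 junctions, or 0.562%, 0.357%, 0.0622% and 0.470%, all below the untreated replicates. There too the VH region as a whole fell, from 50.7% ± 2.33 of all junctions to 6.14% ± 0.721 (SD, n = 4 each). The segment's share of VH junctions was 4.77% ± 0.711 without IAA and 6.23% ± 3.90 with it, with overlapping ranges.

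In that line the log2 change with IAA was -2.93 when the groups were fitted alone (SE 0.51, adjusted p = 0.000414, limma; 50% of 18 segments called) and -2.89 in the fit over all groups. Without treated replicate 4, whose treatment label lacks IAA, the latter was -3.09. Under the median of ratios it was -4.79, with 0 segments higher and 16 lower. The fit over all groups called 79.6% of 98 segments, 71 higher and 7 lower, of which 68 of 78 calls were at segments with under 10 junctions. Within the sequencing runs the log2 change was -2.46 for 3 replicates and -5.07 for replicate 3. Relative to Ighv5-2 no change was called: the ratios were 0.120, 0.0769, 0.0119 and 0.125 with IAA against 0.0528 to 0.0717 without (log2 difference 0.02, exact permutation p = 1). Without replicate 3, which rests on 1 junction, the difference was 0.80 (p = 0.0286, the smallest possible for 3 against 4).

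The segment rose both with IAA in the CTCF degron line and with IGCR1 deletion. Between these groups, CTCF degron cells with IAA had a share of all junctions lower than that of untreated IGCR1-deleted cells, with a log2 difference of -2.13 (SE 0.25, adjusted p = 8.45e-12, limma; 79.6% of 98 segments called, 75 higher and 3 lower). Under the median of ratios it was -5.34, with 31 segments higher and 32 lower. As a share of VH junctions the difference was -1.23 (adjusted p = 2.29e-07; 94% of 83 called), -1.85 with identical junctions collapsed to 1 and -3.43 with Ighv5-2 left out of the denominator. Its ratio to Ighv5-2 was 17.7-fold higher, with no overlap (exact permutation p = 0.00476, the smallest possible, adjusted 0.0143). The deleted line had b libraries only, and over b libraries alone the log2 difference of the share of all junctions was -2.15 (adjusted p = 7.06e-12, limma). These groups differ also in line and sequencing run, which cannot be told apart from the treatment.

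In bone marrow pro-B cells no difference in the segment's share of all junctions from the parental line was called with junctions counted as deposited, while 93 of 98 segments were higher there. Its share of all junctions was 0.152%, 0.207%, 0.146%, 0.147%, 0.130% and 0.135% in 6 replicates, against 0.114% to 0.187% in untreated parental cells. The log2 change was -0.11 (adjusted p = 0.70, limma), while 98% of the segments were called, 93 higher and 3 lower. With identical junctions collapsed to 1 it was -1.71 and was called (adjusted p = 6.05e-05). Under the median of ratios the segment stood at -5.21 and the calls split into 36 higher and 28 lower. It was 61st of the 139 VH by share.

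As a share of VH junctions the segment held 0.368% to 0.598% in bone marrow (median 0.533%) and 2.66% to 3.62% in parental cells. The groups lay far apart, with a log2 change of -2.81 (SE 0.25, adjusted p = 1.03e-15, limma). Of 83 VH segments 96.4% were called, 74 higher and 6 lower, and the segment's change was the lowest of all 83. With Ighv5-2 left out of the denominator it was -3.58. Ighv5-2 changed by -2.11 on this scale. The ratio to Ighv5-2 was 0.0389 to 0.0528 in bone marrow, a log2 difference of -0.56 with ranges that overlapped (exact permutation p = 0.00952, adjusted 0.0214), and the call was lost with identical junctions collapsed to 1 (p = 0.0762). Bone marrow and parental libraries shared no sequencing run.

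The segment's change was set beside those of lists of VH and D segments. Of 13 VH in the first 200 kb of the VH region 12 passed the filter of a mean of 10 junctions. With IAA in the CTCF degron line, 10 of them rose as shares of all junctions and 0 fell, with a median log2 change of 3.23 against 2.38 over all segments. Over all 98 segments 83 rose (85.7% called), so the count of 10 in 12 is near that share. Of the 69 other VH that passed, among 126, 64 rose, with a median of 2.52. Of the 17 D segments that passed, among 27, 9 rose and 1 fell, with a median of 0.55. Of 19 VH closest to an Ighv5 gene, 18 passed and 17 rose, with a median of 2.73.

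In bone marrow, as shares of VH junctions, the first 200 kb split. Of the 12 that passed there, 4 rose and 6 fell, the segment among the latter, with a median of -0.28 against 3.38 over all VH tested. Of the 71 other VH that passed, 70 rose. Across the 13 groups, the segments whose mean shares (log2 of percent + 0.001) ran most alike to the segment's were Ighv2-2 (Pearson r 0.922), Ighv5-2 (0.913), the VH at 114855361 (0.756), a D segment at 114708573 closest to Ighd5-7 (0.732) and Ighv2-3 (0.697). The median r over 97 segments was 0.185. These are descriptions over group means of the same libraries.

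The joins themselves were read for 3 features: the bases lost from the VH end, the bases between bait and prey, and the D family among them. A join at the segment with its end intact was the commonest form, 26.9% of 6463 plus-orientation junctions, and 22.2% had lost 1 base. At Ighv5-2 these were 31.4% and 24.1% of 81818. In 47 replicates with at least 20 junctions at each, the segment had lost 3.15 bases on average and Ighv5-2 2.62 (difference 0.53, higher in 36 of 47; sign-flip permutation test, p = 1e-05, the smallest that 100000 draws give, adjusted over 40 tests 4e-04). Joins with no base lost were 30.3% at the segment and 34.3% at Ighv5-2 (p = 0.00134, adjusted 0.0268, same permutation test). Both differences missed the threshold with identical junctions collapsed to 1, at 0.19 bases (p = 0.187) and -1.83 percentage points (p = 0.124).

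**Figure D4:**
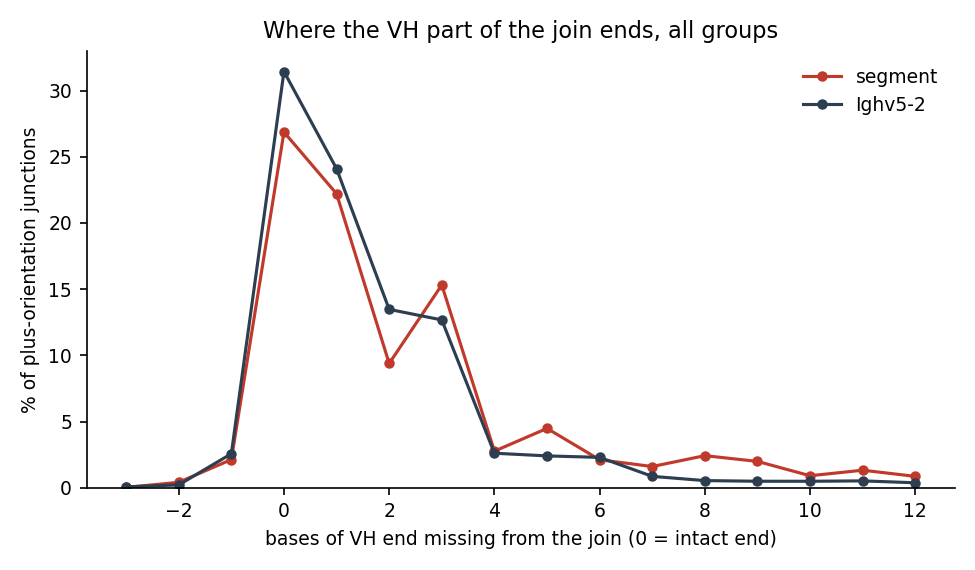
Share of plus-orientation junctions of all groups pooled by the number of VH end bases missing from the join, for the segment (red, 6463 junctions) and Ighv5-2 (blue, 81818). An intact end makes up 26.9% and 31.4%, and negative numbers are bases that continue past the end.

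No other feature of the joins passed between the segment and Ighv5-2. The bases between bait and prey averaged 13.8 and 14.0, and the share with VH and JH in 1 frame was 33.2% and 32.8% (permutation p = 0.769, adjusted 0.878). The segment's reading frame holds the stop codon shown above, so this frame count says nothing of a usable product. Ighd2, the D family matched most often within these joins, was found within 44.4% of the segment's joins and 44.9% of those at Ighv5-2 (adjusted p = 0.878, permutation). Shares of Ighd1, Ighd3 and Ighd4 differed by -2.01, 0.813 and 1.59 percentage points (segment minus Ighv5-2), with adjusted p from 0.0556 to 0.0833.

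The D family within joins at the segment differed between CTCF degron cells with IAA and untreated IGCR1-deleted cells. Ighd1 made up 24.3%, 35.1%, 23.9%, 20.8%, 27.7% and 32.8% of the joins in CTCF degron cells with IAA. In untreated IGCR1-deleted cells it was 7.02%, 4.08%, 2.75% and 2.39%, far below. Ighd4 was the reverse, at 7.58% ± 2.85 (SD, n = 6) and 17.1% ± 4.79 (n = 4), and joins with no D matched were 25.3% ± 3.76 and 38.2% ± 1.10. The bases between bait and prey averaged 15.0 and 13.2. Each of these 4 differences had no overlap, with an exact permutation p of 0.00476, the smallest possible, and an adjusted p of 0.0272 over 40 tests. Joins at Ighv5-2 differed in the same directions between these groups, pooled over replicates and with no test. Ighd1 made up 19.7% and 4.82% of them, Ighd4 8.80% and 11.96%, and joins with no D matched 30.5% and 37.0%. The groups differ in line, sequencing run and library letter (the deleted line had b libraries only), which cannot be told apart from the treatment here.

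In untreated CTCF degron cells the share of Ighd3 was 6.02% ± 2.77 (SD, n = 5), and with IAA it was 1.47% ± 1.05 (n = 6). Among these replicates there was no overlap (exact permutation p = 0.00216, adjusted 0.0272). The untreated ones held only 22 to 62 junctions each, so their Ighd3 shares rest on few joins. Joins at Ighv5-2, pooled over replicates and with no test, went the other way, from 1.56% to 2.12%. Ighd1 was 18.6% ± 7.97 and 27.4% ± 5.54, which did not pass (exact permutation p = 0.0649, adjusted 0.173). Replicate 3 of the untreated cells had under 20 junctions and was left out. Its Ighd3 share was 0% of 18 junctions, within the range of the treated replicates. Between bone marrow and parental cells 0 of 10 features passed over 6 and 3 replicates, and 1, the share with no D matched, had an unadjusted p under 0.05 (exact permutation p = 0.0476). In-frame joins there were 32.0% ± 19.9 and 27.2% ± 4.78 (SD), overlapping.

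**Figure D5:**
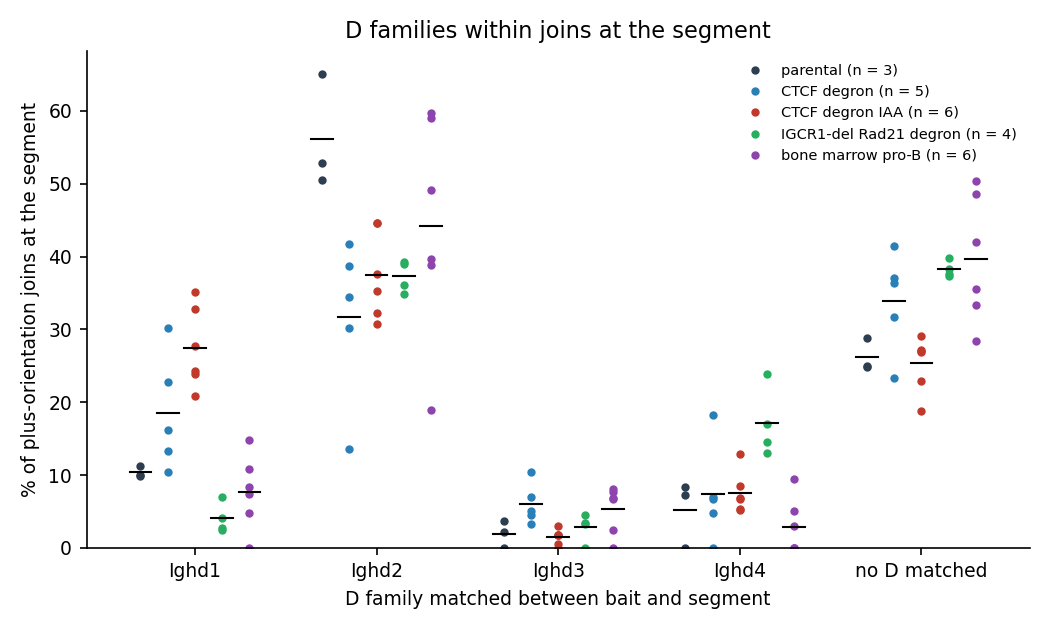
Share of plus-orientation joins at the segment that hold each D family, by replicate (points) with the group mean (line), for 5 groups. Ighd1 lies at 20.8% to 35.1% in CTCF degron cells with IAA (red) and at 2.39% to 7.02% in untreated IGCR1-deleted cells (green).

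Libraries carried the letter a or b, which the labels do not explain and whose reads differ in bait sequence. The letter moved with the segment's values, and its part in them was not tested. In 24 replicates of the parental, OsTIR1-only and CTCF-tag-only lines the ratio to Ighv5-2 was 0.0676 ± 0.0267 in a and 0.0820 ± 0.0278 in b libraries (SD), higher in b in 22 of 24. The share of VH junctions was 2.68% ± 0.534 and 3.32% ± 0.752, also higher in b in 22 of 24. In CTCF degron cells the b ratio was the higher in 3 of 6 replicates, with IAA and without. Except for the IGCR1-deleted line and bone marrow every replicate has both letters, so comparisons among those groups hold the letters in balance.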

How the data were processed

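Each line of a deposited file is 1 junction read and there is no count column, so the unit is other than a count or a normalized value. The authors aligned the reads to mm9 with part of Igh replaced by another sequence, per the labels, and with Bowtie2, per the submitters' processing notes. Filters and the Bowtie2 version are not given in the sources used here. Positions were moved by 3 bases, in opposite directions, in a and b libraries, which differ in bait. Plus-orientation peaks matched with blastn 2.17.0 to annotated coding ends gave 166 segments (139 VH, 27 D), and those with a mean of at least 10 junctions per replicate were tested (98 on the scale of all junctions, 83 VH on the scale of VH junctions). The a and b tallies of a replicate were summed. The main tests were limma 3.58.1 (voom, adding 0.5 junctions; R 4.3.3) over 13 groups with Benjamini-Hochberg adjustment at 0.05, and exact permutation tests of log2 ratios (Python 3.11.15). The off-target lists entered no test. Where a library titled IAA lacked IAA in its treatment label (4 libraries), the title was followed. The test of the ratio between lines with line labels permuted was added after seeing the data.

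Named segments were the one studied, Ighv5-2, the next 3 used VH that passed the filter, and the 5 segments most alike over 13 group means. The segment, the lists and the tests were chosen with earlier results of these data known. D families were called from matches of at least 7 bases. Simulated data had log2 changes of 2, a base rate per segment shared by all groups fitted, and the same set spread for all segments. The real data differ there, since many VH hold almost no junctions in some groups, so the rates below need not hold for them. On the simulated data the joint fit over 98 segments recovered 97.3% of changed segments for IAA in the CTCF degron line (1.35% of calls false). For IGCR1 deletion it recovered 80% (9.77% false), and for CTCF degron with IAA against IGCR1-deleted cells 95.3% (5.92% false). It recovered 55.3% for IAA in the IGCR1-deleted line (28.1% false), where a fit of those groups alone recovered 100% over 17 segments. For IAA in the Rad21 degron line with IGCR1 intact the joint fit recovered 64% (31.9% false), and those treated cells held 0 junctions at the segment. They are therefore given as junction numbers and a limit drawn from these, with no limma result. Same-numbered replicates paired (every correlation of deviations over 0.1) in the OsTIR1-only (0.24 to 0.44) and CTCF-tag-only (0.17 to 0.78) comparisons, from the data and not from the labels. Alternatives were another scale, window, filter, model, library letter, collapsed junctions, a replicate block and leaving out each replicate. Limits set from 3 junctions cover counting error only.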

Additional observations from a re-analysis of the deposited data

Results flagged for a closer look

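In bone marrow, replicate 2 had a share of all junctions at the segment of 0.207%, far from the other 5 replicates by a test on the gap. In untreated CTCF-tag-only cells, replicate 4 had a share of VH junctions of 3.15%, apart from the other 3 by the same test. This test was made in 33 sets of a group and a measure, and chance marks about 1 in 20. The effect of IAA on the segment's share of all junctions differed between the CTCF degron line and the control lines by a test of the difference. For the share of all junctions the log2 differences were 2.97 (parental), 3.10 (OsTIR1-only) and 2.61 (CTCF-tag-only). Scaled by the median of ratios they were 0.33, 0.76 and 0.29, and no call was left.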

How the results depend on the processing

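Of 39 results, 25 kept their direction and their side of the threshold under every setting tried, and no called result reversed. With the median of ratios as scale, the share of all junctions gave 0.19 for IAA in the CTCF degron line, 0.33, 0.76 and 0.29 for its difference from parental, OsTIR1-only and CTCF-tag-only cells, so that these 4 calls were lost, and -5.21 for bone marrow against parental, which was called. With identical junctions collapsed to 1, calls were gained for bone marrow (-1.71) and for the VH share of untreated CTCF degron against parental (-1.05) and of IGCR1 deletion (1.12). Calls were lost there for the log2 ratio, at 0.80 (CTCF degron against parental) and -0.66 (bone marrow), and for the join differences, at 0.19 bases and -1.83 percentage points. Without Ighv5-2 in the denominator, the VH share was called at 1.79 for IGCR1 deletion and -1.33 for untreated CTCF degron against parental, which was -0.58 with these groups fitted alone. The share of all junctions for that comparison was -0.73 in a libraries. The cause was not tested in these cases.

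With the replicate number as a block, that share was -0.84 (no call), and the log2 ratio missed the threshold at 1.18 for the same groups, -0.54 for bone marrow against parental and 4.01 for CTCF degron with IAA against IGCR1-deleted cells, where 4 pairs cannot reach below p = 0.125. The pairing changed no other call. Leaving out replicates gave -1.0 to -0.81 for the share of all junctions and -0.76 to -0.51 for the VH share of untreated CTCF degron against parental, and -0.33 to 0.80 for the log2 ratio with IAA in the IGCR1-deleted line. The depth of the IAA-treated Rad21 degron group allows no statement below 0.0539%.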
